A study of Mus musculus with 27 samples.

Results

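Gcg, Pyy, Insl5 and Nts are described here, 4 of the 35975 genes over which the transcript counts of this mouse colon study were summed. They were chosen by name, as the peptide hormone genes of the enteroendocrine L cell together with the neurotensin gene. The choice rule used no measured value, but earlier results of these data were known when it was made. All 4 were found in every library's table, and all 4 had counts in each of the 4 groups. Poly(A) RNA was sequenced from short pieces of proximal and distal colon of 14 mice of mixed background, and 13 mice gave a library of each segment. Deficient mice were Villin1-Cre; Foxa1lox/lox; Foxa2lox/lox, aged 9 to 13 months, and 2 of the 7 were female per the labels. Controls, aged 9 to 18 months, were all male. Of the 7 controls, 5 were Foxa1lox/lox; Foxa2lox/lox without Cre. Control replicate 1 was Villin1-Cre; Foxa1lox/wt; Foxa2lox/wt, and control replicate 6 was Villin1-Cre; Foxa1lox/lox; Foxa2lox/wt, so every mouse of either group carried a loxP-flanked allele of both genes. There were 7 proximal libraries of each group, 6 distal control libraries and 7 distal deficient libraries, each replicate a separate mouse. Villin1-Cre acts in the intestinal epithelium, and other cells of the piece keep both genes.

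L cells are scattered hormone-producing cells of the gut epithelium that sense nutrients and bacterial products and release several peptides together. Gcg encodes proglucagon, which L cells cut into the glucagon-like peptides that act on insulin secretion, appetite and mucosal growth. Pyy encodes peptide YY, which slows transit and lowers food intake, Insl5 encodes an insulin-like peptide made by L cells of the colon and rectum, and Nts encodes neurotensin, a peptide of endocrine cells best known from the ileum. Foxa1 and Foxa2 encode forkhead transcription factors of gut epithelium, and mouse work on the small intestine has linked them to the formation of L cells.

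DNA at the start of each gene is shown because forkhead factors are the deleted proteins: the bases just upstream for Gcg, Pyy and Nts, and for Insl5 a short stretch that lies upstream of its main GENCODE transcript and almost wholly within the first exon of the other. It was taken from the RefSeq windows on GRCm38.p6, which held all 4 genes, and all 4 lie on the minus strand. Capitals mark matches to TGTTTAC or TATTTAC, 2 spellings of a forkhead-type motif that were searched on both strands (GTAAACA and GTAAATA on the other), do not overlap each other, and were chosen after the windows had been seen. The stretches are Gcg at chr2:62483654-62483903, Pyy at chr11:102107833-102108082, Nts at chr10:102490487-102490668 and 29 bases of Insl5 at chr4:103026816-103026844, each written 5′ to 3′ on the gene's strand.
Gcg: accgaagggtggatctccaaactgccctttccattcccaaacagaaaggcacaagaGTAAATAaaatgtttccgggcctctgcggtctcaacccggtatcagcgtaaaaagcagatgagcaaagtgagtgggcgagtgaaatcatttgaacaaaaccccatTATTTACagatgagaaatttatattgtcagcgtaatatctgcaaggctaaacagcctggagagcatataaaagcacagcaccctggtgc
Pyy: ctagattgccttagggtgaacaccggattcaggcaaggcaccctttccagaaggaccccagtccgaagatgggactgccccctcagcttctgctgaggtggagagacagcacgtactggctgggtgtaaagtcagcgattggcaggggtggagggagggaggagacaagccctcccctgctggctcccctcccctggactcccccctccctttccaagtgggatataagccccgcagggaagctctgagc
Insl5: ctatgtgcttaGTAAACActgttaagata
Nts: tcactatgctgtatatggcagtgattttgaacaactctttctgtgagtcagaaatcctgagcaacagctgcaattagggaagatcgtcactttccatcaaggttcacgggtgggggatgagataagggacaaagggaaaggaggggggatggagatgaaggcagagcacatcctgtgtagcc

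Gcg had 2 matches, TATTTAC at bases 89 to 83 and GTAAATA at bases 194 to 188 before its RefSeq start site. Insl5 has 2 RefSeq start sites, and the 250 bases before the downstream site held GTAAACA at bases 105 to 99, inside the first exon of 1 of its 2 GENCODE transcripts. No match was found in the 250 bases before the upstream Insl5 site, before either Pyy site or before the Nts site. Of 32851 RefSeq windows of 250 bases, 3.17% held TGTTTAC, 2.73% held TATTTAC and 5.76% held either. A match describes letters only, and its absence says nothing of what binds there.

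A library held between 18472867 and 56744113 estimated counts, with the distal median of 34211641 lower than the proximal one of 43816721. Levels are given in CPM, counts scaled to a common library size by TMM (a trimmed-mean normalization) over all 27 libraries, and a gene was called when its edgeR quasi-likelihood test gave a Benjamini-Hochberg adjusted p under 0.05 over all genes tested. As a check of the labels, Foxa2 lay between 1.23 and 1.75 CPM in proximal deficient against 6.05 to 15.7 CPM in proximal control libraries, and between 0.326 and 1.37 against 15.5 to 30.4 CPM distally. Foxa1 lay between 10.1 and 14.5 CPM in proximal deficient libraries and between 7.21 and 10.5 CPM in distal ones. In controls it lay between 42.4 and 80.8 CPM, except in control replicate 6, at 13.9 CPM proximally and 7.60 CPM distally, the control whose label gives Cre with both Foxa1 alleles floxed. The epithelial gene list (Epcam, Krt8 and 7 others) had 0 of 9 genes called in either segment, and its summed level ranged from 10998 to 17357 CPM in proximal control and from 12420 to 17514 CPM in proximal deficient libraries. In distal libraries that sum ranged from 16098 to 25561 CPM in controls and from 12461 to 21691 CPM in deficient mice. In whole tissue pieces, fewer cells of a type and less RNA per cell cannot be told apart, and this holds for each result on the hormone genes.

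In proximal colon all 4 hormone genes were lower in Foxa1/2-deficient mice, and no deficient library reached the lowest control library of its gene. Gcg, Pyy and Nts were called lower with mean levels 8.0-fold, 2.12-fold and 12.1-fold below control, and Insl5, already scarce here in controls, was nearly absent from deficient libraries. Of the 16787 genes tested, 11.7% were called in either direction and 6.17% lower, and 3.05% had no overlap of CPM with deficient libraries below control libraries.

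Gcg ranged from 39.2 to 62.3 CPM with a median of 46.5 CPM in the 7 proximal control libraries. In the 7 proximal deficient libraries it ranged from 4.32 to 7.63 CPM with a median of 6.53 CPM. Every deficient library was far below every control, and the groups did not overlap. Control libraries averaged 48.2 ± 8.75 CPM and deficient libraries 6.03 ± 1.24 CPM (SD, n = 7 each), with a log2 fold change of -2.98 (SE 0.15, edgeR adjusted p = 1.59e-08).

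Pyy had the smallest log2 fold change of the 4 genes in proximal colon. Its level lay between 30.4 and 39.1 CPM (median 33.9) in control libraries and between 10.1 and 20.4 CPM (median 17.9) in deficient libraries. Deficient replicate 6 was the lowest and deficient replicate 5 the highest, and neither reached the controls. Mean levels were 34.7 ± 3.28 CPM (SD, n = 7) and 16.4 ± 3.68 CPM (SD, n = 7), with a log2 fold change of -1.06 (SE 0.13, edgeR adjusted p = 4.75e-05).

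Insl5 was scarce in proximal colon even in control mice, at 0.605 to 0.996 CPM in 6 control libraries, or 31 to 42 counts, and 0.0744 CPM in control replicate 6, which held 3 counts. In deficient libraries, replicates 1 and 6 held 2 counts each and the 5 others held 0. The sums were 227 counts in controls and 4 in deficient mice, a depth-adjusted ratio of 57.3 with an exact 95% interval of 22.1 to 212 that covers counting error only. The gene was under the low-count filter, and with it added back the edgeR log2 fold change was -5.53 (SE 0.67, adjusted p = 3.53e-05). Without control replicate 6 it was -5.73 (SE 0.50, edgeR adjusted p = 1.68e-06).

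Nts ranged from 40.4 to 69.6 CPM with a median of 60.9 CPM in proximal control libraries. Deficient libraries lay between 2.68 and 8.64 CPM with a median of 3.87 CPM, highest in replicates 4 and 1. The groups were widely apart, and the lowest control, replicate 1, carried Cre. Mean levels were 58.4 ± 9.31 CPM in controls and 4.82 ± 2.23 CPM in deficient mice (SD, n = 7 each), with a log2 fold change of -3.59 (SE 0.24, edgeR adjusted p = 3.03e-07).

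**Figure D1:**
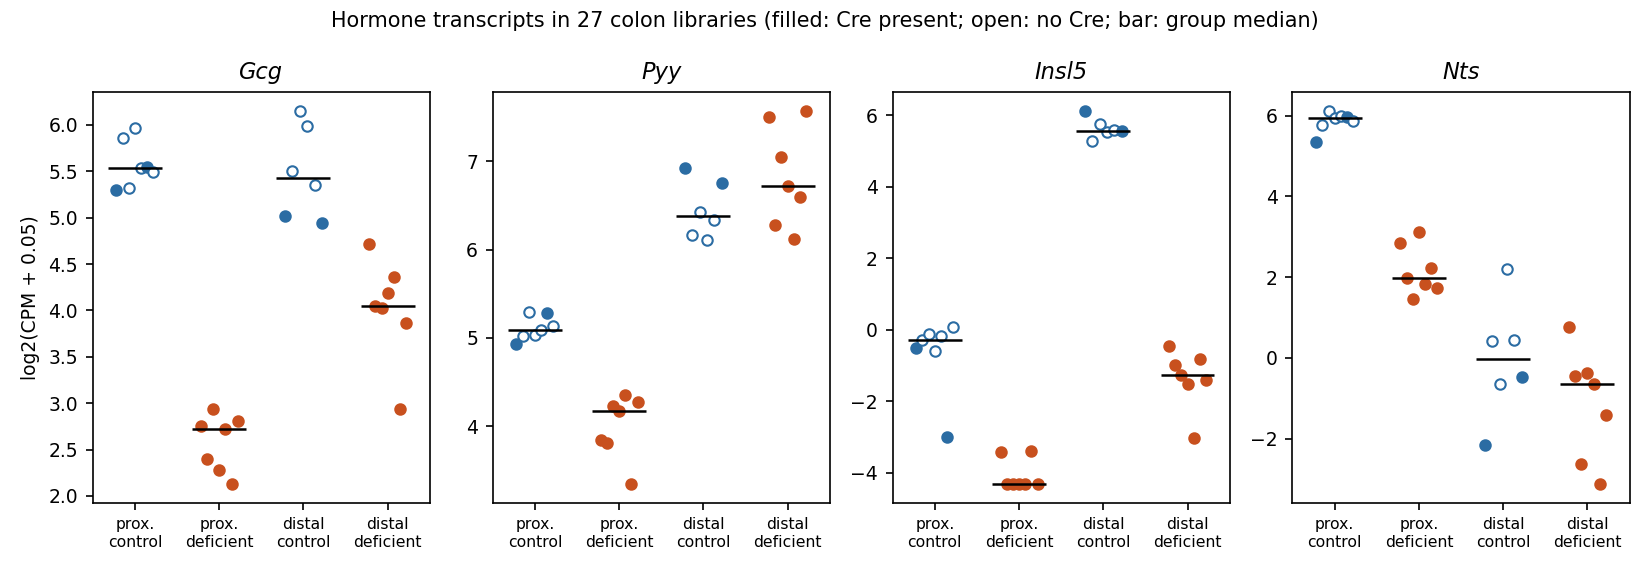
Level of each hormone gene as log2(CPM + 0.05) in the 27 libraries, by segment and group, with filled points for mice with Cre, open points for mice without Cre and a bar at the group median. In proximal colon the deficient points of all 4 genes lie below every control point, while in distal colon this holds for Gcg and Insl5 and the groups overlap for Pyy and Nts.

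In distal colon the 4 genes split. Insl5 and Gcg were called lower, by 131-fold and 2.76-fold of the mean level, and Pyy and Nts were not called. Of the 16041 genes tested, 6.07% were called in either direction and 3.37% lower, and 2.07% had deficient libraries all below control libraries, as Insl5 and Gcg did.

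Insl5 ranged from 38.5 to 70.0 CPM with a median of 47.5 CPM in the 6 distal control libraries. The 7 distal deficient libraries lay between 0.0732 and 0.684 CPM with a median of 0.365 CPM. Replicate 5 was the lowest with 2 counts and replicate 1 the highest with 22 counts, and control replicate 6, the library that was low proximally, held 46.9 CPM here. Means were 50.7 ± 10.7 CPM in 6 controls and 0.388 ± 0.191 CPM in 7 deficient mice (SD), with a log2 fold change of -6.98 (SE 0.29, edgeR adjusted p = 1.23e-08). The ratio of the summed counts, 9914 against 84, was 123 after adjustment for depth, with an exact 95% counting interval of 98.9 to 154.

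Gcg ranged from 30.7 to 71.2 CPM with a median of 43.0 CPM in distal control libraries and from 7.59 to 26.3 CPM with a median of 16.5 CPM in distal deficient libraries. Deficient replicate 6 was the lowest and replicate 1 the highest. The closest controls were the 2 that carried Cre, at 30.7 and 32.5 CPM, against 40.8 to 71.2 CPM in the 4 without it. The control mean was 47.3 ± 16.6 CPM (SD, n = 6) and the deficient mean 17.1 ± 5.71 CPM (SD, n = 7), with a log2 fold change of -1.46 (SE 0.26, edgeR adjusted p = 0.00361). Against the controls without Cre alone it was -1.69 (SE 0.26, edgeR adjusted p = 0.00204).

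Pyy was not called in distal colon. Control libraries lay between 69.1 and 121 CPM (median 83.3) and deficient libraries between 69.7 and 190 CPM (median 105). The ranges overlapped, with 4 of 7 deficient libraries inside the control range and 2 of those under the control mean, and the 3 highest, replicates 7, 1 and 3, were above every control. Mean levels were 89.4 ± 20.9 CPM (SD, n = 6) and 122 ± 48.2 CPM (SD, n = 7), with a log2 fold change of 0.45 (SE 0.23, edgeR adjusted p = 0.331). Here too the 2 controls with Cre stood apart from the 4 without, at 108 and 121 CPM against 69.1 to 86.1 CPM. Proximally the controls with Cre did not stand apart for Pyy, at 30.4 and 38.9 CPM against 32.5 to 39.1 CPM.

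Nts was low in distal colon of either group. Controls held 0.173 to 4.58 CPM (median 0.983), or 4 to 131 counts, and deficient libraries 0.0646 to 1.65 CPM (median 0.585), or 2 to 53 counts. Control replicate 4 alone held 131 of the 287 control counts, and deficient replicate 1 held 53 of 128. The log2 fold change was -1.25 (SE 0.71, edgeR adjusted p = 0.389), and without control replicate 4 it was -0.45 (edgeR adjusted p = 0.766).

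**Figure D2:**
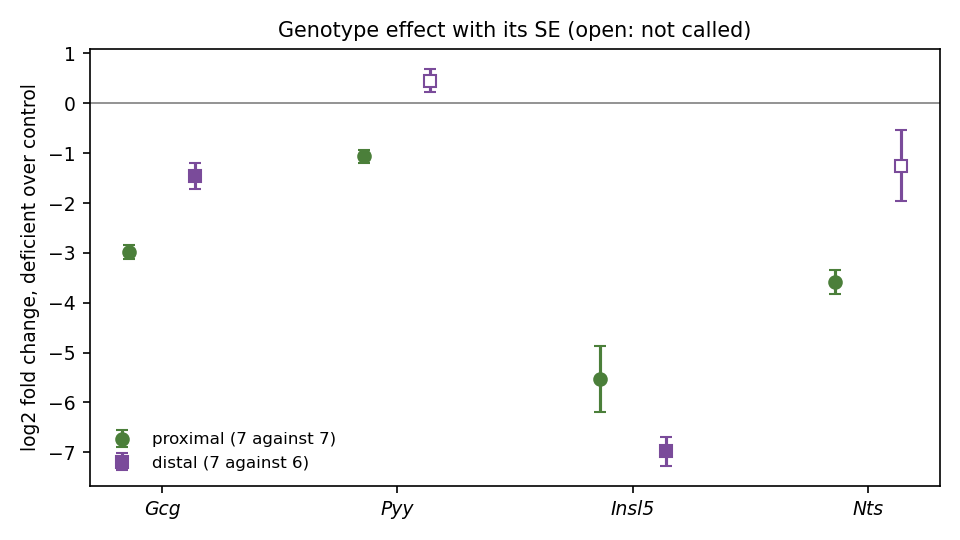
Log2 fold change of deficient over control mice with its SE for each hormone gene, proximal as circles and distal as squares, filled where called at an adjusted p under 0.05 (Insl5 proximal from the fit with the gene added back). The Gcg value is -2.98 proximally and -1.46 distally, that of Pyy is -1.06 and 0.45, and that of Insl5 is -5.53 and -6.98.

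The genotype effect differed between segments for Gcg and Pyy. In the fit over the 26 libraries of the 13 mice with both segments, with mouse as a block, the distal effect of Gcg was higher than the proximal one by 1.55 on the log2 scale (SE 0.24, edgeR adjusted p = 0.0054). The difference for Pyy was 1.49 (SE 0.26, edgeR adjusted p = 0.0101). Of 17595 genes tested, 1.01% were called for this difference and 0.432% toward a higher distal effect. Nts had a difference of 2.56 (SE 0.63, edgeR adjusted p = 0.0703) and Insl5 one of -1.66 (SE 1.43, edgeR adjusted p = 0.698), and neither was called. Insl5 had 4 counts in all over the 7 proximal deficient libraries.

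Within single mice, the 4 genes ran along the colon in different ways. Pyy and Insl5 were higher in the distal than in the proximal library of each of the 6 control and 7 deficient mice, and Nts was lower distally in each of them. Gcg had no called difference in control mice, with 2 of 6 mice higher distally and a log2 difference of -0.09 (SE 0.16, edgeR adjusted p = 0.663). In deficient mice Gcg was higher distally in 7 of 7, with a log2 difference of 1.45 (SE 0.16, edgeR adjusted p = 0.000103). Between a segment pair, 43.8% of 16507 genes were called in control mice and 45.1% of 16514 in deficient mice, so a call alone sets no gene apart.

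In control mice the distal minus proximal log2 difference was 1.35 for Pyy (edgeR adjusted p = 7.08e-05), 6.34 for Insl5 (edgeR adjusted p = 2.26e-06) and -5.69 for Nts (edgeR adjusted p = 2.15e-05). The same differences in deficient mice were 2.83 for Pyy (edgeR adjusted p = 1.36e-05), 4.74 for Insl5 with the gene added back (edgeR adjusted p = 0.000139) and -3.28 for Nts (edgeR adjusted p = 0.000179). The proximal to distal order of Pyy, Insl5 and Nts was thus the same in either group of mice. Fragment lengths were handled differently for the proximal and distal files, which coincides with segment. An alternative fit with an offset for effective transcript length changed no segment call of these genes. Any other part of that handling cannot be told apart from segment. By mean CPM, Gcg ran from proximal control to distal control, distal deficient and proximal deficient libraries, and of these neighbours the first pair and the last pair overlapped. Pyy ran from distal deficient to distal control, proximal control and proximal deficient libraries, with overlap in the first pair. Insl5 ran from distal control to proximal control, distal deficient and proximal deficient libraries, with overlap in the middle pair. Nts was highest in control and next in deficient proximal libraries, followed by distal libraries of controls and then of deficient mice, with overlap in the last 2 of these 3 steps.

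**Figure D3:**
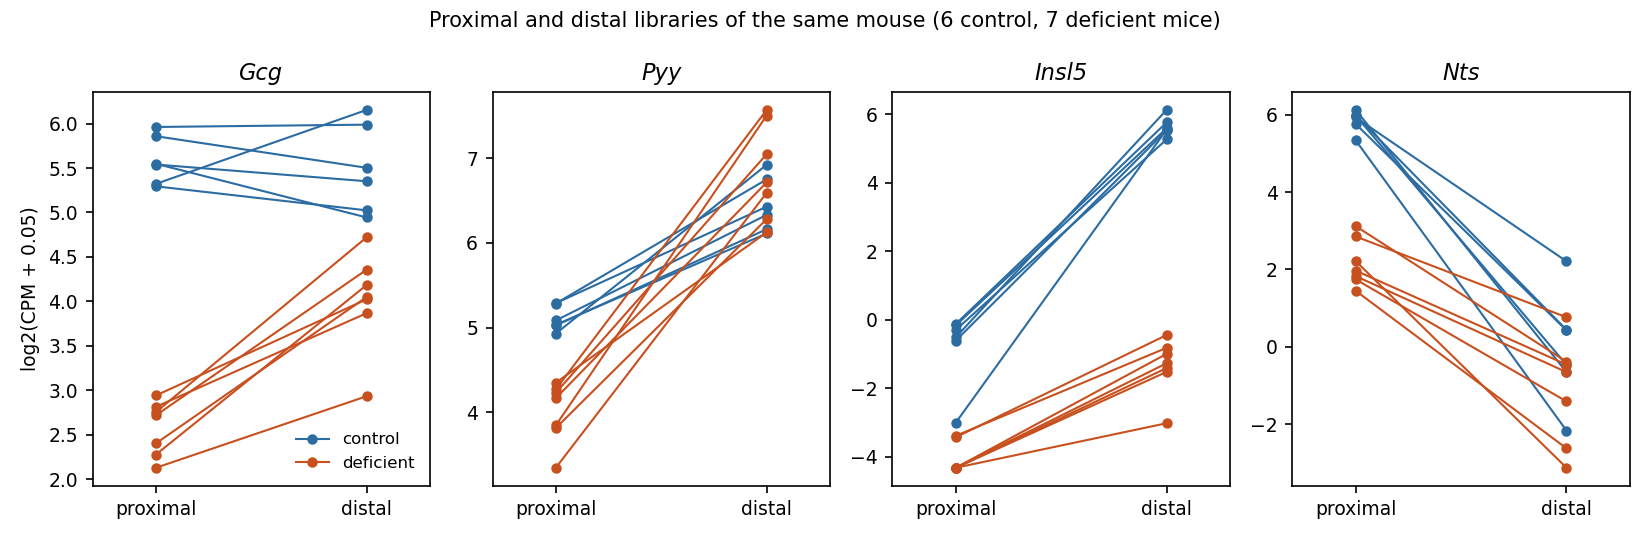
Proximal and distal level of each hormone gene in the same mouse as log2(CPM + 0.05), with a line per mouse for 6 control and 7 deficient mice. Lines of Pyy and Insl5 climb and lines of Nts descend in all 13 mice, while Gcg climbs in 7 of 7 deficient and in 2 of 6 control mice.

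Levels of different genes were compared per transcript length, in TPM (the length-scaled abundance deposited by the authors, summed per gene). Pyy was the most abundant member in each group by mean TPM. Proximal control colon held 158 ± 18.1 TPM of Pyy, 78.9 ± 17.1 TPM of Gcg, 76.7 ± 12.0 TPM of Nts and 2.10 ± 1.01 TPM of Insl5 (SD, n = 7). In distal control colon Pyy stood at 379 ± 76.8 TPM, Insl5 at 126 ± 30.8 TPM, Gcg at 68.3 ± 31.5 TPM and Nts at 1.57 ± 1.76 TPM (SD, n = 6). Insl5 was thus the scarcest of the 4 in proximal and Nts in distal control colon. Fragment lengths were handled differently for the proximal and distal files, so TPM were not tested between segments.

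As a share of the summed TPM of the 4 genes, Pyy took 50.2% ± 3.17 in proximal control and 81.8% ± 3.13 in proximal deficient libraries (SD, n = 7 each), with no overlap (45.2 to 53.9% against 76.2 to 84.8%). Gcg took 24.9% ± 3.71 and 10.9% ± 1.54, and Nts 24.3% ± 2.42 and 7.18% ± 3.27. In distal colon the share of Pyy was 65.9% ± 6.52 in controls (SD, n = 6) and 94.8% ± 2.37 in deficient libraries (SD, n = 7), again without overlap. Distal Insl5 went from 21.9% ± 2.44 to 0.216% ± 0.118, and distal Gcg from 12.0% ± 4.83 to 4.90% ± 2.34. Pyy thus held most of the summed TPM of these 4 genes in deficient mice at either site. Other gut hormone genes are not part of this sum. These shares sum to the whole, so a lower share of 1 gene raises the others.

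Ratios of counts within a library do not depend on library scaling and were compared between groups for 6 gene pairs in each segment, by 2-sided exact permutation tests with Benjamini-Hochberg adjustment over the 12. The smallest p possible was 0.000583 for 7 against 7 and 0.00117 for 6 against 7 libraries. The log2 ratio of Gcg to Pyy went from 0.46 ± 0.32 to -1.43 ± 0.27 in proximal colon (SD, n = 7 each), a difference of -1.90 (exact permutation p = 0.000583, adjusted 0.0028), and the groups did not overlap. In distal colon it went from -0.96 ± 0.76 (SD, n = 6) to -2.82 ± 0.72 (SD, n = 7), a difference of -1.86 (exact permutation p = 0.0035, adjusted 0.00599), with overlap. Gcg was therefore lower relative to Pyy in deficient mice at either site. The distal overlap came from the 2 controls with Cre, at -1.90 and -1.81, and deficient replicate 5 at -1.77.

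Against Nts, Gcg had no called difference in proximal colon (0.69, exact permutation p = 0.0647, adjusted 0.0776) or in distal colon (-0.29, exact permutation p = 0.659, adjusted 0.659). Pyy rose relative to Nts in proximal colon by 2.59 (exact permutation p = 0.000583, adjusted 0.0028), where the control ratios had an SD of 0.17. The distal difference of that ratio was 1.57 (exact permutation p = 0.108, adjusted 0.118), and against controls without Cre alone it was 2.43 (exact permutation, adjusted p = 0.0364).

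Insl5 fell relative to each of the other genes in distal colon. The difference was 5.67 for Gcg to Insl5, 7.53 for Pyy to Insl5 and -5.96 for Insl5 to Nts (for each, exact permutation p = 0.00117, adjusted 0.0028), and no groups overlapped. Proximally, where 5 deficient libraries held 0 counts and the ratio leans on the added 0.5 counts, Gcg to Insl5 had a difference of 2.09 (exact permutation p = 0.0122, adjusted 0.0184) and Pyy to Insl5 one of 3.99 (exact permutation p = 0.00175, adjusted 0.0035). Insl5 to Nts had one of -1.40 (exact permutation p = 0.0519, adjusted 0.0692), which was -1.83 against controls without Cre alone (exact permutation, adjusted p = 0.00808). With 1 count added in place of 0.5, the proximal difference of Gcg to Insl5 was 1.35 (exact permutation, adjusted p = 0.0682).

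**Figure D4:**
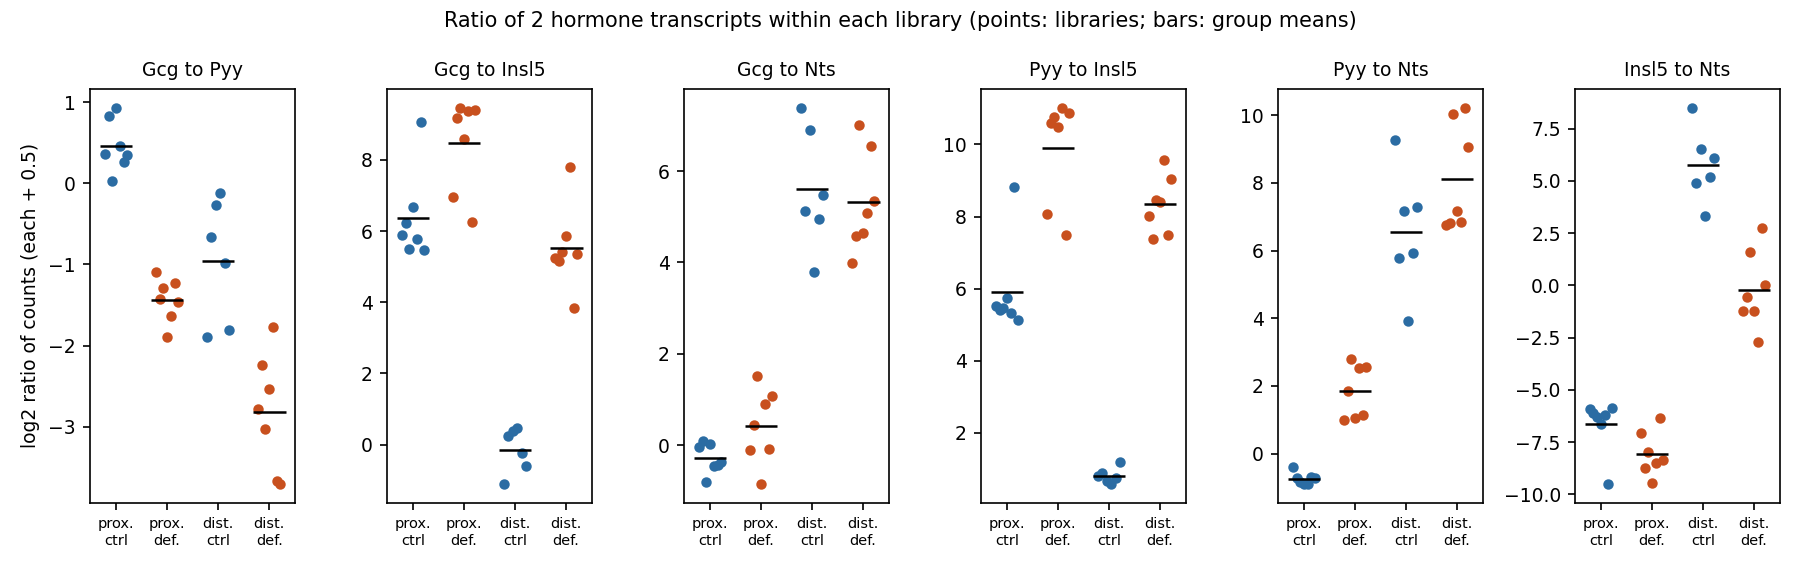
Log2 ratio of the counts of 2 hormone genes in each library, 0.5 counts added to each, with libraries as points, control in blue and deficient in orange, and bars at group means. The ratio of Gcg to Pyy is lower in deficient than in control libraries of each segment by 1.90 and 1.86 in the mean, and the distal ratios with Insl5 lie apart without overlap.

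The spread among libraries also differed between the genes. In proximal control libraries the coefficient of variation (SD over mean) was 9.47% for Pyy, 15.9% for Nts, 18.2% for Gcg and 43.8% for Insl5. In distal control libraries it was 21.1% for Insl5, 23.3% for Pyy, 35.0% for Gcg and 112% for Nts, and in distal deficient libraries that of Pyy was 39.5%. Proximal control libraries held 3 to 42 counts of Insl5, lowest in replicate 6, and distal control libraries 4 to 131 counts of Nts, highest in replicate 4. The part of low counts and of these single libraries in the spread was not tested.

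Most Gcg counts came from a protein-coding transcript of 1088 bases, at 95.5% of the gene in proximal control and 95% in proximal deficient libraries, and 92.2% and 91.8% in the distal groups. The main Pyy transcript, of 555 bases, held 71.4% and 70.3% of Pyy proximally and 65.4% and 66.8% distally, and a model with a retained intron held between 9.35% and 14.1%. A transcript of 695 bases held 98.0% of Insl5 in distal control and 84.9% in distal deficient libraries, where the gene had 84 counts in all, and Nts has 1 counted transcript, of 1248 bases. The transcript make-up of Gcg and Pyy therefore differed little between groups, and it was not tested. The gene models are Gcg at chr2:62474530-62483650, Pyy at chr11:102106676-102107832, Insl5 at chr4:103017872-103026842 and Nts at chr10:102481756-102490486, GRCm38 with GENCODE M21, and counts were summed over their exons, untranslated parts included.

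Hormone precursors are cut and modified before release. Of 7 processing genes tested in proximal colon, 0 were called higher and 1 lower, where 5.52% of all genes tested were called higher and 6.17% lower, and the list median log2 fold change was -0.04 against 0.01 over all genes tested. The gene called was Pcsk1, which encodes the prohormone convertase that cuts proglucagon in L cells, at 26.8 ± 4.2 CPM in controls and 12.6 ± 2.46 CPM in deficient libraries (SD, n = 7 each), with a log2 fold change of -1.07 (SE 0.13, edgeR adjusted p = 4.1e-05). In distal colon 1 of 7 was called higher and 1 lower, against 2.7% and 3.37% of all genes tested, with a median of -0.10 against 0.01. Cpe, a carboxypeptidase that trims cut prohormones, went from 74.8 to 110 CPM with a log2 fold change of 0.57 (SE 0.12, edgeR adjusted p = 0.0084), and Pam, which amidates peptide ends, from 280 to 184 CPM with one of -0.60 (SE 0.14, edgeR adjusted p = 0.0227). Distal Pcsk1 had a log2 fold change of -0.36 (edgeR adjusted p = 0.334). None of the 3 genes is particular to L cells.

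Receptors and channels through which L cells sense the gut content moved in either direction. Of 13 such genes tested in proximal colon, 4 were called higher and 5 lower, with a median log2 fold change of 0.19. For this and the following lists, the shares over all genes tested were 5.52% higher and 6.17% lower proximally. Distally they were 2.7% and 3.37%. Ffar2, a receptor for short-chain fatty acids, fell from 20.8 ± 4.75 to 4.77 ± 1.53 CPM (SD, n = 7 each), with a log2 fold change of -2.11 (SE 0.21, edgeR adjusted p = 6.34e-06). Abcc8, a subunit of the ATP-sensitive potassium channel, fell from 3.21 to 0.494 CPM with a log2 fold change of -2.67 (edgeR adjusted p = 2.2e-06). Slc15a1, a peptide transporter of absorptive cells, rose from 2.00 to 26 CPM with a log2 fold change of 3.73 (edgeR adjusted p = 1.12e-05), and Gpbar1, a bile acid receptor, rose from 0.178 to 0.612 CPM (edgeR adjusted p = 2.84e-05).

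Of 11 sensing genes tested in distal colon, 1 was called higher and 2 lower, with a median log2 fold change of 0.25. Ffar2 and Abcc8 were again lower, with log2 fold changes of -2.37 (SE 0.40, edgeR adjusted p = 0.00221) and -2.62 (SE 0.42, edgeR adjusted p = 0.00173). Ffar1, a receptor for long-chain fatty acids, rose from 1.73 to 5.07 CPM with a log2 fold change of 1.55 (SE 0.23, edgeR adjusted p = 0.000953). Ffar2 and Abcc8 thus fell at the site where Pyy was not called as well as at the site where it fell.

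On the receiving side, 2 of 12 tested receptor and peptidase genes were called higher and 1 lower in proximal colon, with a median log2 fold change of -0.02. Dpp4, the peptidase that inactivates glucagon-like peptides and trims peptide YY, rose from 26.2 ± 9.36 to 93.5 ± 26.4 CPM (SD, n = 7 each), with a log2 fold change of 1.85 (SE 0.21, edgeR adjusted p = 2.32e-05). Glp1r fell from 1.3 to 0.777 CPM (log2 fold change -0.73, edgeR adjusted p = 0.00467), and Glp2r rose from 5.43 to 8.92 CPM (0.73, edgeR adjusted p = 0.0105). These 2 genes encode the receptors of the glucagon-like peptides.

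In distal colon 2 of 10 were called higher and 1 lower, with a median of -0.34. Dpp4 rose from 24.0 to 44.5 CPM (log2 fold change 0.90, SE 0.13, edgeR adjusted p = 0.000623). Npy2r, the receptor that prefers the trimmed form of peptide YY, rose from 0.391 to 2.28 CPM (2.52, SE 0.25, edgeR adjusted p = 3.36e-05). Thop1, a peptidase that cuts neurotensin among other peptides, fell from 27 to 17.7 CPM (-0.60, edgeR adjusted p = 0.00221). Rxfp4, the receptor of the Insl5 peptide, singled out after its values were seen, was at most 0.184 CPM in proximal and 0.130 CPM in distal libraries and was under the filter in either segment.

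Among 23 transcription factor genes of endocrine cells tested proximally, 6 were called higher and 5 lower, with a median log2 fold change of 0.09. Neurod1 rose from 3.90 to 11.4 CPM (log2 fold change 1.56, edgeR adjusted p = 3.03e-07), Rfx6 from 0.985 to 3.77 CPM (1.95, edgeR adjusted p = 6.97e-06) and Pax6 from 1.53 to 3.83 CPM (1.34, edgeR adjusted p = 8.78e-06). Lmx1a, a factor of serotonin cells, fell from 1.12 to 0.0972 CPM (-3.44, edgeR adjusted p = 2.89e-05). Of 19 tested distally, 6 were called higher and 0 lower, with a median of 0.29. They included Pax6 (log2 fold change 1.75, edgeR adjusted p = 2.05e-05), a factor that also acts on the Gcg gene.

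Chga, a granule protein of many endocrine cells, fell from 129 ± 49.7 to 19.9 ± 3.39 CPM in proximal colon (SD, n = 7 each), with a log2 fold change of -2.67 (SE 0.21, edgeR adjusted p = 6.83e-07). It was 1 of 2 granule genes called lower of 13 tested, 0 were called higher, and the median log2 fold change was 0.07. Proximal Chgb was not called, at 194 CPM in controls and 202 CPM in deficient libraries. In distal colon 4 of 13 were called higher and 1 lower, with a median of 0.47. Chgb rose there from 88.7 to 276 CPM (log2 fold change 1.65, edgeR adjusted p = 0.000854). Distal Chga was not called (-0.68, edgeR adjusted p = 0.0538).

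Other gut hormone genes were called in either direction. In proximal colon 2 of 11 tested were called higher and 4 lower, with a median log2 fold change of -0.42, and in distal colon 2 of 9 higher and 1 lower, with a median of -0.81. Tph1, the enzyme of serotonin synthesis, fell from 24.1 to 0.664 CPM proximally (log2 fold change -5.15, edgeR adjusted p = 3.03e-07) and from 13.9 to 0.339 CPM distally (-5.30, edgeR adjusted p = 2.05e-06). Sct, which encodes secretin, rose from 29.3 to 109 CPM proximally (1.91, edgeR adjusted p = 5.16e-05) and from 6.28 to 28.4 CPM distally (2.18, edgeR adjusted p = 0.00713). Cck, the cholecystokinin gene, rose from 2.72 to 25.8 CPM distally (3.23, edgeR adjusted p = 3.36e-05), in the libraries where Pyy was not called and Gcg and Insl5 fell.

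**Figure D5:**
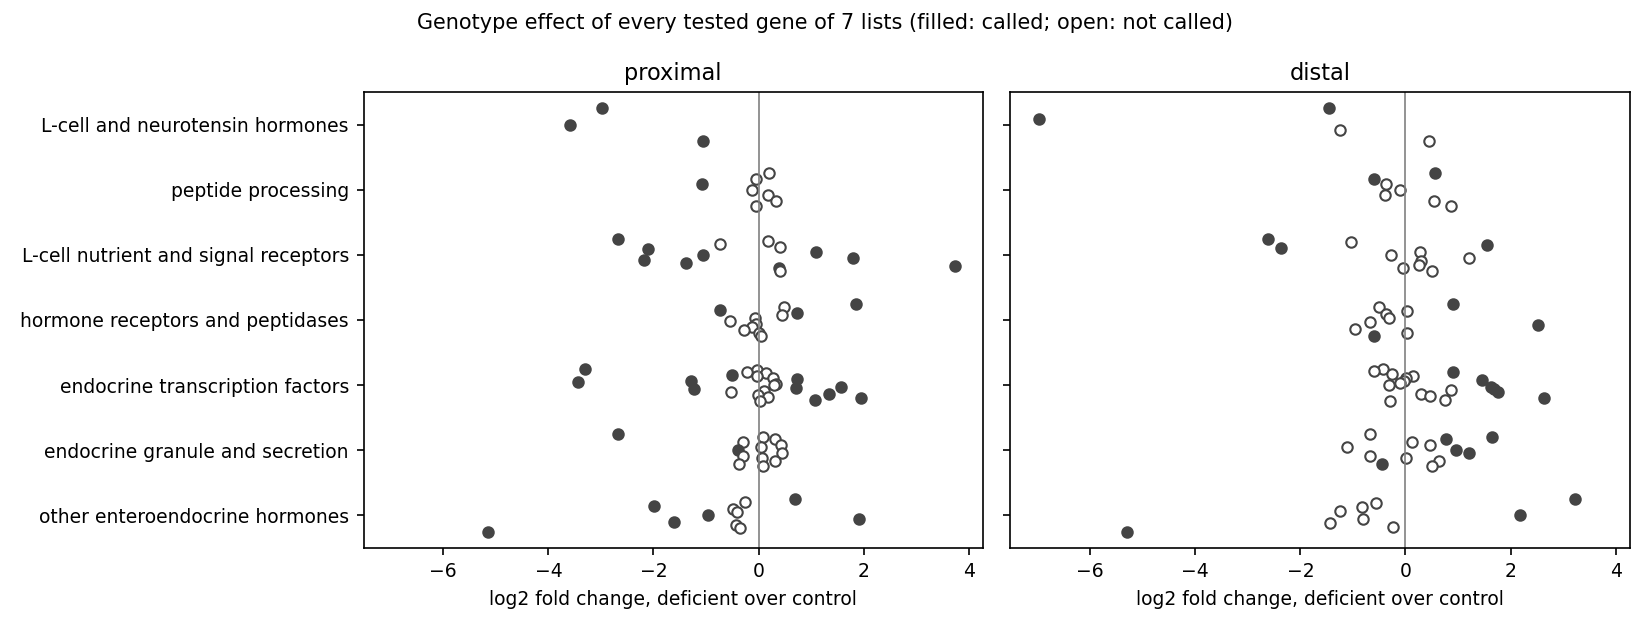
Log2 fold change of deficient over control mice for each tested gene of 7 lists in proximal (left) and distal (right) colon, filled where called. The hormone genes of the top row lie between -3.59 and -1.06 proximally (Insl5, under the filter there, is not drawn) and between -6.98 and 0.45 distally, while each other list has genes on either side of 0.

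Markers of other tissue parts were read beside the hormone results. Of 5 tested small-intestinal and Paneth cell markers, 4 were called higher in proximal deficient libraries and 0 lower. The 4 were Fabp6, Apoa4, Apoa1 and Sis. The Paneth cell marker Lyz1, named after its values were seen, was not called (log2 fold change -0.32 proximally and -0.95 distally). The Defa genes were under the filter in either segment. The summed level over the 8 listed genes was 12.5 to 71.3 CPM in proximal control and 97.4 to 936 CPM in proximal deficient libraries. Distally 2 of 4 tested were called higher, the sum was 4.26 to 29.8 CPM in control and 13.4 to 119 CPM in deficient libraries, and Defa17 was at 0 in every distal library, with Defa24 and Defa30 at 0 in the distal deficient ones. Among 6 colon epithelium markers 3 were called lower proximally and 2 distally, with summed levels of 15276 to 23394 against 11509 to 16929 CPM proximally and 5318 to 9425 against 2685 to 6451 CPM distally. The part of these markers in the hormone results was not tested.

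Pancreatic islets also express Gcg and Pyy, so pancreatic markers were read, and the genes named here were chosen after their values were seen. Of the 7 listed, 0 of 1 tested proximally and 0 of 2 tested distally were called. Their summed proximal level ranged from 27.6 to 50.4 CPM in controls and from 26 to 37.1 CPM in deficient mice, and nearly all of it was Cela1, with means of 39.0 and 30.8 CPM, while none of the 6 others exceeded 0.124 CPM in a proximal library. The distal sum ranged from 82.3 to 265 CPM in controls and from 54.4 to 619 CPM in deficient mice. Ins2, the insulin gene, was at 0 in 21 of the 27 libraries and reached 1.61 CPM in distal deficient replicate 4, where Prss2, a pancreatic protease gene, stood at 86.3 CPM. That library held 18.1 CPM of Gcg, close to the median of its group, and in no other library did Ins2 exceed 0.0534 CPM. Distal control replicate 4 also held pancreatic transcripts, with 30.8 CPM of Prss2 and 74.0 CPM of the protease gene Ctrb1, and it is the library with the highest distal Nts of either group, at 4.58 CPM. These 2 libraries were not the only ones. Distal deficient libraries had a mean of 18.3 CPM and a median of 0.0841 CPM of Prss2, more than their replicate 4 alone accounts for. The median of Ctrb1 was 1.83 CPM in distal deficient and 0.171 CPM in distal control libraries. The part of pancreatic tissue in these values was not tested. Smooth muscle and neuron and glia lists had 0 of 6 and 0 of 11 genes called in either segment. Their distal sums were 1005 to 3236 CPM in control against 435 to 1622 CPM in deficient libraries for smooth muscle, and 29.1 to 62.4 against 19.4 to 49.3 CPM for neurons and glia, and their part in the distal values was not tested.

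For each hormone gene the 3 genes of most similar pattern were taken, as those with the smallest root mean square difference of log2(CPM + 0.5), each gene centred on its mean, over the 27 libraries and among 13882 genes. For Gcg these were Ptprn2, Mmp15 and Muc4, with differences of 0.56, 0.56 and 0.62, where Gcg itself varied by 1.25. Ptprn2, a secretory granule phosphatase-like protein, had mean levels of 42.7 CPM in control and 9.68 CPM in deficient proximal libraries, and of 37.6 and 14.3 CPM in distal ones. Those nearest to Pyy were Duoxa1, Smpdl3a and Zg16, with differences of 0.43, 0.47 and 0.48 against 1.17 for Pyy itself. Nearest to Insl5 were Aqp4, Ggh and Sycn, with differences of 1.01, 1.08 and 1.22 against 2.54, and nearest to Nts were Car8, St3gal5 and Reg3g, with 1.16, 1.21 and 1.23 against 2.38. No gene stood in the list of more than 1 hormone gene. The libraries of a group and segment share most of this likeness, so it is given as a description.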

How the data were processed

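Poly(A) RNA-seq libraries of 27 colon pieces were analysed. Per the submitters' processing notes, bcl2fastq 2.20.0.422, cutadapt 2.5, kallisto 0.46.2 and edgeR were used, with the GRCm38 (mm10) build. The authors deposited, per library and transcript, estimated counts, effective lengths in bases and TPM, and per segment a matrix that by its values holds log2 CPM per gene. The scaling of that log2 matrix, the single-end or paired-end setting and the strand setting are not given in the sources used here, and no other annotated gene lies over any of the 4 genes.

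Of 119414 transcripts, 116728 matched GENCODE M21, and the others held 0.902% to 1.27% of a library's counts. Expected counts were summed per gene and rounded. Groups, ages, sexes and mice come from the labels. Comparisons used edgeR 4.0.16 (R 4.3.3) after filterByExpr and TMM, with mouse as a block between segments, and scipy for exact tests. The code was tested on simulated counts. Alternatives were DESeq2 1.42.0, limma 3.58.1 on the log2 matrix, other scalings and filters, subsets of mice and leaving out each replicate.

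The 4 genes, the gene lists and the tests were chosen with earlier results of these data known. The text names the 4 genes, Foxa1 and Foxa2, at most 4 called genes of smallest p per list and segment, and the 3 nearest genes by pattern, and it says where a gene is named beyond that. Same-numbered control and deficient libraries come from different mice, and their deviations correlated above 0.1 in 1 of 7 proximal and 2 of 6 distal pairs. The proximal and distal library of a mouse did so in 10 of 13, and the shared animal is given by the labels.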

Additional observations from a re-analysis of the deposited data

Results flagged for a closer look

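Single libraries stood apart from the rest of their group in 4 of the 24 groups of values examined, by a gap test that flags about 1 group in 20 by chance. Insl5 was at 0.0744 CPM in proximal control replicate 6, the lowest of its group, and Foxa1 was at 13.9 CPM in the same library, also the lowest. Nts was at 4.58 CPM in distal control replicate 4 and at 1.65 CPM in distal deficient replicate 1, each the highest of its group. The genotype effect differed between segments by the interaction test of the edgeR fit for 3 genes named in the text. The distal effect was above the proximal one by 1.55 on the log2 scale for Gcg (adjusted p = 0.0054) and by 1.49 for Pyy (adjusted p = 0.0101), and for Foxa2 the difference was -1.93 (adjusted p = 0.0046).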

How the results depend on the processing

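Over 548 alternative values of the hormone genes and their ratios, 533 kept direction and side of the threshold, 1 was weaker, 11 were stronger and 3 reversed. No genotype call of the 4 genes within a segment changed under any alternative. The replicate block gave log2 fold changes of -2.99 proximally and -1.45 distally for Gcg, with 1696 and 689 genes called, and changed no call of the 4 genes. The segment difference of Nts became called with DESeq2 (2.56, adjusted p = 0.0124), with no low-count filter (2.56, adjusted p = 0.0462) and with scaling to epithelial markers (2.84, adjusted p = 0.0378), and leaving out each mouse gave 2.27 to 3.05, called without control replicate 4 or deficient replicate 6. The control segment difference of Gcg was -0.68 with epithelial scaling (adjusted p = 0.0164) and ran from -0.27 to 0.0024 leaving out each mouse, positive only without control replicate 6. For count ratios (exact permutation), 1 count added gave 1.35 for proximal Gcg to Insl5. With controls without Cre only, 2 ratios became called, proximal Insl5 to Nts (-1.83, adjusted p = 0.00808) and distal Pyy to Nts (2.43, adjusted p = 0.0364), and distal Gcg to Nts was 0.12. Leaving out each replicate, proximal Gcg to Nts ran from 0.51 to 0.90 (called without deficient replicate 4), proximal Insl5 to Nts from -1.88 to -1.17 (called without control replicate 6 or deficient replicate 6) and distal Gcg to Nts from -0.65 to 0.0681 (positive without control replicate 1). DESeq2 called 1504 genes distally against 973, and 529 for the segment difference against 178, which ran from 102 to 225 leaving out each mouse (102 without control replicate 2, 110 without deficient replicate 3). Epithelial scaling called 11528 genes between control segments against 7231. It moved the median log2 value of all genes to -0.16 proximally, 0.17 distally, 0.27 for the segment difference, -0.62 between control and -0.33 between deficient segments. It changed the share of calls that were higher from 47.2% to 28%, 44.5% to 66.4%, 42.7% to 63.2%, 49.1% to 10.0% and 50.4% to 21.5%. The cause of each of these shifts was not tested. Few counts limit the size of the proximal Insl5 change, whose ratio has a counting interval of 22.1 to 212, and distal Nts was measured from 2 to 131 counts per library.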
